A study of Mus musculus with 15 samples.

Results

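Tau, encoded by Mapt, and the genes that act beside it on neuronal microtubules were followed in hippocampal RNA from aged mice. The group held 9 genes chosen by symbol for their function, namely Mapt, Map1a, Map1b, Map2, Map4, Map6, Gsk3b, Cdk5 and Cdk5r1, out of 55401 genes in the count files. All 9 were found, and all 9 passed the filter on low counts. The choice used no measured value as a criterion but was made with earlier results of these data known. RNA had been sequenced from the hippocampus of 15 female mice. The methods of the study give an age of 18 to 20 months, and its discussion gives a higher approximate age. The WT mice were littermates without the transgene (labelled Tg2576 -/-), of which 4 received vehicle and 4 received DHA. The Tg2576 mice (labelled Tg2576 +/+) carried human APP with the Swedish familial mutation under the prion promoter, and 4 received vehicle and 3 received DHA. DHA (docosahexaenoic acid, an omega-3 fatty acid) was given daily into the stomach at 450 mg/kg for 5 weeks, diluted in the sesame oil that served as vehicle. The study also put mice of these groups through fear conditioning with foot shocks and the Morris water maze. The comparisons ask whether the RNA of these genes differed between the genotypes, and whether DHA altered it in either genotype.

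Microtubules are the tracks along which cargo moves in axons and dendrites, and microtubule-associated proteins (MAPs) bind along them and set their stability. Tau is mainly axonal, MAP2 is mainly dendritic, and MAP1A and MAP1B bind microtubules in both compartments, with MAP1B prominent in growing neurites. Phosphorylation by kinases such as GSK3-beta and CDK5 releases tau from microtubules, and hyperphosphorylated tau forms the neurofibrillary tangles of Alzheimer's disease. The RNA levels given here say nothing of tau protein or of its phosphorylation, which were not analysed here.

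Total counts ranged from 17372864 to 46596489 per mouse, with a median of 25645977. The lowest count of any of the 9 genes in any mouse was 2083, for Map6. The transgene check followed the labels: reads of mouse App, to which reads of the human transgene can also map, reached 1572 to 1787 CPM in the WT mice and 2076 to 2787 CPM in the Tg2576 mice. The summed level of 9 neuronal markers was 6332 to 7209 CPM in WT mice and 6502 to 6967 CPM in Tg2576 mice, and all 9 passed the filter. Markers of the choroid plexus, a tissue next to the hippocampus, varied from 60.8 to 5811 CPM between mice.

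The upstream sequences of Map1a, Map1b, Map2 and Gsk3b are shown because the levels of these 4 genes rose and fell together from mouse to mouse. These levels also followed a gene length slope of each library, and both are described further on. RefSeq windows (GRCm38.p6, the build of the counts) were found for 5 of the 9 genes. Mapt, Map6, Cdk5 and Cdk5r1 had no entry. Each run below is the sense strand, 5′ to 3′, and ends at the RefSeq start of the gene or, for Map1a and Map2, at the base before the gene starts in the counting annotation. Map1a lies at chr2:121289352-121289599 (+ strand), Map1b at chr13:99516603-99516852 (- strand), Map2 at chr1:66175079-66175272 (+ strand) and Gsk3b at chr16:38088751-38089000 (+ strand). Capitals mark matches, on either strand, to the GC box (GGGCGG), the CCAAT box (CCAAT) and the TATA box (TATAAA).
Map1a: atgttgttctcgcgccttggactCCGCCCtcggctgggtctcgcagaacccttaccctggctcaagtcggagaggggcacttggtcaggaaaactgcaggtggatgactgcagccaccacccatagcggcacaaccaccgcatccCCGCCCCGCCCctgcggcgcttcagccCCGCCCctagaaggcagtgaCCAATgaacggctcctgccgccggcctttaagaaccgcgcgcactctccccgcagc
Map1b: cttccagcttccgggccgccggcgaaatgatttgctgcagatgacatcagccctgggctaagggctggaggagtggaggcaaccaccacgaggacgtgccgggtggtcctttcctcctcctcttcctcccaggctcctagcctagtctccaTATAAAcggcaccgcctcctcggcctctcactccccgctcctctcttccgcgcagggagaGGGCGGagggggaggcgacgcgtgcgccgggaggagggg
Map2: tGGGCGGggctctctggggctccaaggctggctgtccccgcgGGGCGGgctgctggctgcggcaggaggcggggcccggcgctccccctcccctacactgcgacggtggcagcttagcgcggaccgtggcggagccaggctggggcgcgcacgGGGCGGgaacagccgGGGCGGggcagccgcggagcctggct
Gsk3b: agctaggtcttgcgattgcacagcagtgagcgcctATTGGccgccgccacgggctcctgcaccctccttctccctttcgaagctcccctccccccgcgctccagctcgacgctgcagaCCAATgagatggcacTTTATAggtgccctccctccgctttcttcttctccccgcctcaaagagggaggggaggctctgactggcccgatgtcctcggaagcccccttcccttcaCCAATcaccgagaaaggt

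Map1a held 4 GC boxes and 1 CCAAT box, with overlapping matches counted separately, and Map1b held 1 GC box and 1 TATA box in the 250 bases upstream. Map2 held 5 GC boxes, 4 of them in the printed part, whereas Gsk3b held 3 CCAAT boxes, 1 TATA box and no GC box. None of the 4 windows held a CRE half-site (TGACG) or an E-box (CACGTG). Of all 32851 RefSeq windows of the same 250 bases, 32.7% held a GC box, 33.8% a CCAAT box, 12.4% a TATA box, 17.8% a CRE half-site and 6.02% an E-box. The GC content was 81.2% for Map2, higher than in 99.1% of all windows, and 62.0% to 66.4% for the other 3 (median of all windows 52.4%). No listed motif was thus shared by all 4 genes, and a match is a description of letters only.

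Levels of different genes were compared as CPM (read counts scaled to the library total, with TMM factors) per kilobase of exon. Map1a was the most abundant, with 134 ± 23.2 CPM per kb (SD, n = 15), and lay above Mapt in 15 of 15 mice. Mapt followed with 74.1 ± 5.31 CPM per kb, above Cdk5 in 13 of 15 mice. Cdk5 (57.1 ± 6.25), Map1b (56.9 ± 12.3), Cdk5r1 (50.8 ± 4.96), Map2 (49.9 ± 9.02) and Map4 (45.0 ± 2.57) came next. Each of the first 4 of these exceeded the following one in only 8 to 10 of 15 mice, so the order among the 5 was not fixed beyond the spread, whereas Map4 lay above Gsk3b in 15 of 15 mice. Gsk3b (16.9 ± 2.14) and Map6 (13.9 ± 0.935) were the lowest, with Gsk3b above Map6 in 14 of 15 mice. The spread between mice differed between genes: over all 15 mice the coefficient of variation of the CPM was 21.7% for Map1b, 18.1% for Map2 and 17.3% for Map1a, but 7.17% for Mapt, 6.71% for Map6 and 5.70% for Map4.

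**Figure D1:**
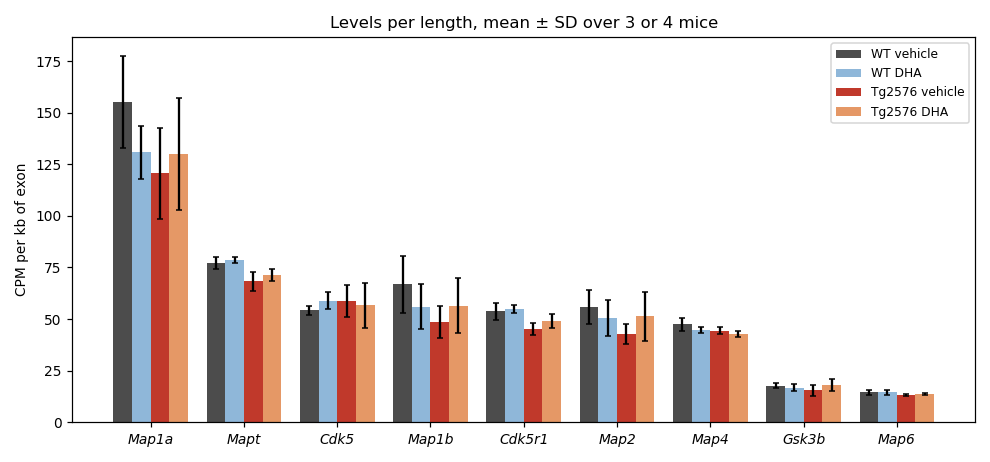
Mean level of each gene in CPM per kilobase of exon (y axis, from 0) for the 4 groups, with bars of ± SD over 3 or 4 mice. Map1a stands highest and Gsk3b and Map6 lowest in every group, and the error bars of Map1a are the widest in every group.

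Mapt encodes tau (ENSMUSG00000018411.17, chromosome 11, 104231390 to 104332090, + strand, GRCm38). In the WT vehicle mice its level was 581, 606, 553 and 590 CPM. In the Tg2576 vehicle mice it was 468, 531, 551 and 509 CPM, so that every transgenic mouse lay below every WT mouse of this pair of groups. The WT DHA mice had 586, 607, 579 and 594 CPM and the Tg2576 DHA mice 519, 530 and 562 CPM, again without overlap. Across both treatments, 6 of the 7 Tg2576 mice were below all 8 WT mice, and the exception was Tg2576 DHA replicate 3 (562 CPM), which exceeded WT vehicle replicate 3 (553 CPM).

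The mean level of Mapt under vehicle was 583 ± 22.0 CPM for the 4 WT mice and 515 ± 35.4 CPM for the 4 Tg2576 mice, and under DHA 592 ± 11.96 CPM for the 4 WT mice and 537 ± 22.2 CPM for the 3 Tg2576 mice (± SD). The genotype difference averaged over both treatments was -0.16 on the log2 scale (standard error 0.0516), or -10.4%, with adjusted p = 0.230. It thus passed the study's threshold, an unadjusted p of 0.01, at which a gene is said here to be called, but not an adjusted p of 0.05. When the genotype labels were permuted exactly within each treatment (2450 arrangements), the two-sided p was 0.000408, the smallest these can give. It is not adjusted over genes and largely restates the lack of overlap within each treatment. The share of all genes that reach it was not counted. The same permutation test gave p = 0.0265 for Map6, 0.0306 for Map4 and 0.131 to 0.838 for Map1a, Map1b, Map2, Gsk3b and Cdk5. Under vehicle alone the Mapt difference was -0.18 (standard error 0.0699, adjusted p = 0.374) and under DHA alone -0.14 (standard error 0.0757, adjusted p = 0.769), and neither was called. The call over both treatments was kept with DESeq2 (adjusted p = 0.0387) and limma-voom, and lost under the other 5 alternative settings (adjusted p up to 0.500). It was also lost, with adjusted p up to 0.452, when WT vehicle replicate 1, 2 or 4, WT DHA replicate 1, 2 or 4, Tg2576 vehicle replicate 1 or 4, or Tg2576 DHA replicate 1 or 2 was left out. Fewer cells that make tau and less tau RNA per cell cannot be told apart in bulk tissue. Of the 9 neuronal markers, 7 were lower over both treatments and 2 were called, with a median log2 difference of -0.069, and their part in the Mapt result was not tested.

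**Figure D2:**
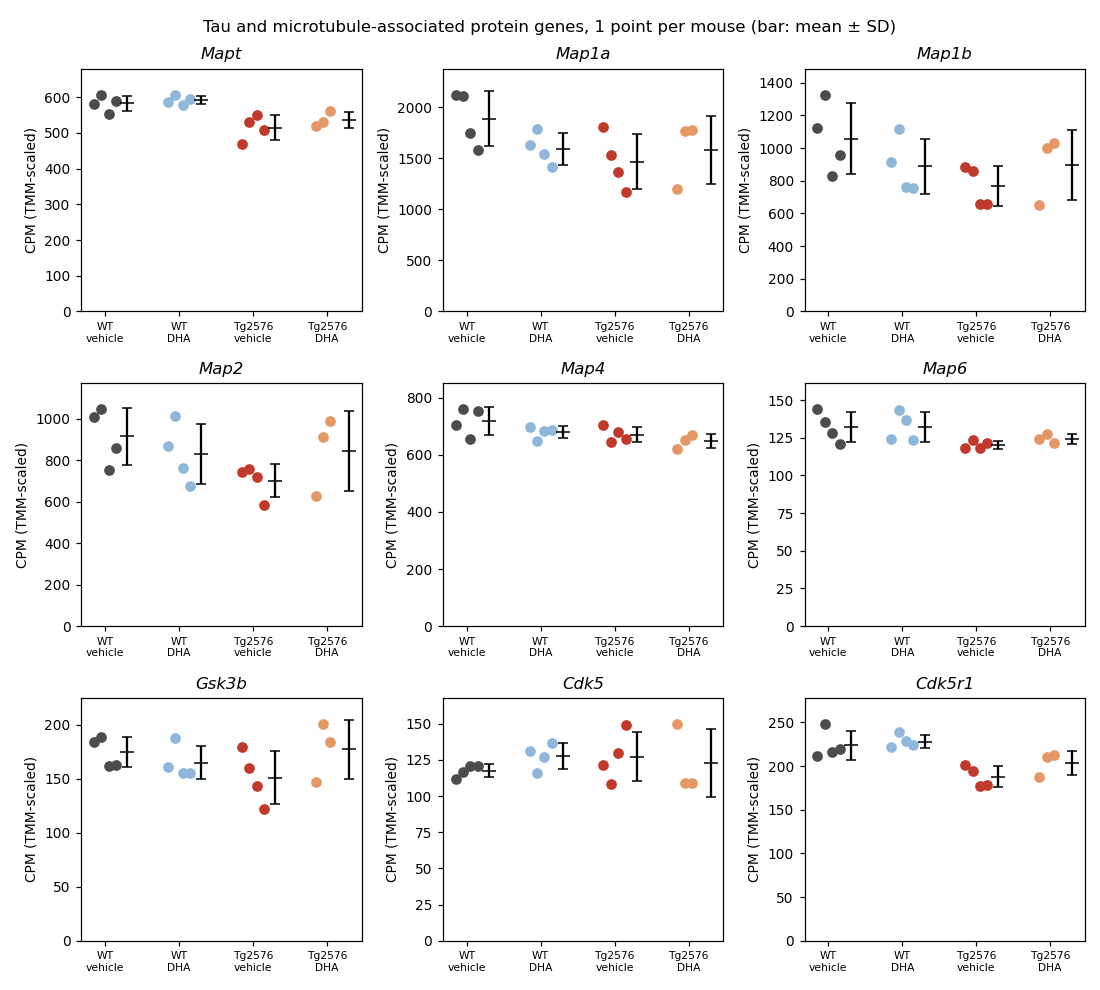
CPM of each gene in every mouse (y axes from 0, 1 point per mouse) by group, with the mean ± SD beside the points. For Mapt and Cdk5r1 the Tg2576 points lie below the WT points within each treatment, whereas for Map1a, Map1b, Map2, Map4, Map6, Gsk3b and Cdk5 the groups overlap.

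Cdk5r1 encodes p35, a neuronal protein that binds CDK5 and activates it (ENSMUSG00000048895.13, chromosome 11, 80477023 to 80481184, + strand). It had 211, 248, 216 and 220 CPM in the WT vehicle mice and 201, 195, 177 and 178 CPM in the Tg2576 vehicle mice. In the WT DHA mice it had 221, 239, 229 and 224 CPM, and in the Tg2576 DHA mice 188, 210 and 213 CPM. The genotypes did not overlap within either treatment, and over both treatments only Tg2576 DHA replicate 3 (213 CPM) exceeded the lowest WT mouse (211 CPM).

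Cdk5r1 was the only one of the 9 genes called between the genotypes under vehicle, where it fell by 0.25 on the log2 scale (standard error 0.0766), or -16.1%, with adjusted p = 0.261. Over both treatments it fell by 0.21 (standard error 0.0565), or -13.5%, with adjusted p = 0.148. The exact permutation within treatments again gave p = 0.000408, which is not adjusted. The difference under DHA was -0.16 (standard error 0.0829, adjusted p = 0.737). The call under vehicle was lost without WT vehicle replicate 2 (adjusted p = 0.739), without Tg2576 vehicle replicate 3 (adjusted p = 0.531), without Tg2576 vehicle replicate 4 (adjusted p = 0.558) and when only these groups were fitted (adjusted p = 0.411). The call over both treatments was kept under all 7 alternative settings and without each of the 15 mice (adjusted p from 0.0204 to 0.342).

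Cdk5, the kinase itself (chromosome 5, 24418241 to 24423530), went the other way in value under vehicle only. Under vehicle it had 117 ± 4.46 CPM in WT and 127 ± 17.2 CPM in Tg2576 mice (± SD, n = 4 each), a log2 difference of 0.12 (standard error 0.110, adjusted p = 0.748). Under DHA it had 128 ± 8.76 CPM in 4 WT and 123 ± 23.6 CPM in 3 Tg2576 mice (± SD), a log2 difference of -0.058 (standard error 0.119, adjusted p = 0.949). The highest levels were in Tg2576 vehicle replicate 4 (149.5 CPM) and Tg2576 DHA replicate 1 (150.01 CPM), and the groups overlapped. The log2 ratio of Cdk5r1 to Cdk5 within each library, which does not depend on library scaling, was -0.013 ± 0.117 in WT and -0.37 ± 0.266 in Tg2576 mice under vehicle (± SD, n = 4 each). The exact permutation test gave p = 0.0571 for this ratio (adjusted p = 0.686 over 16 tests), the lowest of the 4 ratios and 4 comparisons examined. The difference in this ratio was -0.36, and -0.29 with an offset for gene length described further on. None of the ratios Map1a to Map1b, Mapt to Map2 and Map4 to Map2 differed at an unadjusted p of 0.05 (p from 0.0857 to 0.971).

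Gsk3b, which encodes a kinase that phosphorylates tau at many sites (chromosome 16, 38089001 to 38246084), had 185, 189, 162 and 163 CPM in WT vehicle and 180, 160, 143 and 122 CPM in Tg2576 vehicle mice. The groups overlapped and the log2 difference was -0.21 (standard error 0.118, adjusted p = 0.547). Under DHA its value was higher in Tg2576 than in WT mice (177 ± 27.5 against 165 ± 15.5 CPM, SD, n = 3 and 4), a difference of 0.10 (standard error 0.128, adjusted p = 0.908).

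Map1a, Map1b and Map2 encode the large MAPs. Map1b (chromosome 13, 99421446 to 99516540) had 1122, 1327, 827 and 956 CPM in the WT vehicle mice and 887, 857, 660.1 and 660.3 CPM in the Tg2576 vehicle mice. Map2 (chromosome 1, 66175273 to 66442583) had 1008, 1047, 752 and 859 CPM in WT vehicle and 744, 759, 719 and 583 CPM in Tg2576 vehicle mice. Map1a (chromosome 2, 121289600 to 121310832) had 2124, 2114, 1743 and 1578 CPM in WT vehicle and 1802, 1529, 1370 and 1168 CPM in Tg2576 vehicle mice. In each of these genes the highest transgenic mouse lay above the lowest WT mouse, so the groups overlapped.

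Their differences under vehicle were the largest in value among the 9 genes and were not called. They were -0.47 for Map1b (standard error 0.176, adjusted p = 0.364), -0.39 for Map2 (standard error 0.151, adjusted p = 0.374) and -0.37 for Map1a (standard error 0.146, adjusted p = 0.382) on the log2 scale, or -27.6%, -23.5% and -22.4%. The exact permutation p was 0.0857, 0.0571 and 0.114, where 4 mice against 4 cannot give less than 0.0286. Among 8 alternative settings, Map1b was called under vehicle in 3, Map2 in 2 and Map1a in 1. Under DHA the 3 differences between the genotypes were near 0 (0.0098, 0.023 and -0.0086 for Map1b, Map2 and Map1a). The Tg2576 DHA mice had 649, 1001 and 1033 CPM for Map1b and 626, 915 and 992 CPM for Map2, with replicate 1 far below the other 2.

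Map4, a MAP also found widely outside neurons (chromosome 9, 109931460 to 110083955), and Map6, which encodes the cold-stable tubule protein STOP (chromosome 7, 99267447 to 99337137), varied little. Map4 had 719 ± 47.7 CPM in WT vehicle and 672 ± 27.8 CPM in Tg2576 vehicle mice (SD, n = 4 each), a log2 difference of -0.10 (standard error 0.0706, adjusted p = 0.654). Map6 had 132 ± 9.83 CPM in WT vehicle and 120.4 ± 2.57 CPM in Tg2576 vehicle mice (SD, n = 4 each), a difference of -0.13 (standard error 0.0754, adjusted p = 0.551). For Map6, 5 of the 8 WT mice lay above all 7 Tg2576 mice.

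Across the 9 genes, 1 was called under vehicle, where 3.09% of the 19536 genes tested were called, and 8 differences were below 0 with a median of -0.21 against 0.0003 for all genes tested. Mapt and Cdk5r1 were the 2 of 9 without overlap between the genotypes, as were 5.16% of all genes. Under DHA 0 of 9 genes were called (1.75% of all genes) with adjusted p from 0.737 to 0.995, and Mapt and Cdk5r1 were again the 2 without overlap (8.56% of all genes). Over both treatments 2 of 9 were called, Mapt and Cdk5r1, beside 3.85% of all genes, with a median difference of -0.16 against -0.0043. Since these 9 genes were picked as a group and several of them vary together, these counts describe them and are not a test.

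DHA against vehicle called 0 of the 9 genes in either genotype, where it called 1.38% of all genes in WT mice and 0.353% in Tg2576 mice. In WT mice the differences ran from -0.25 (Map1b, standard error 0.176, adjusted p = 0.879, and Map1a, standard error 0.145, adjusted p = 0.863) to 0.12 (Cdk5, standard error 0.110, adjusted p = 0.896) on the log2 scale. In Tg2576 mice they ran from -0.053 (Cdk5, standard error 0.119, adjusted p = 0.999) to 0.27 (Map2, standard error 0.162, adjusted p = 0.999), with Gsk3b at 0.23 (standard error 0.127, adjusted p = 0.999). Mapt differed by 0.022 (standard error 0.0699, adjusted p = 0.971) in WT and 0.062 (standard error 0.0755, adjusted p = 0.999) in Tg2576 mice. The levels of DHA and vehicle mice overlapped for all 9 genes in both genotypes, whereas 5.02% of all genes in WT and 3.21% in Tg2576 mice did not overlap. Averaged over the genotypes, 0 of 9 were called (0.870% of all genes), with differences from -0.069 for Map1a to 0.074 for Gsk3b.

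The interaction, the DHA difference in Tg2576 mice minus that in WT mice, was positive for 8 of the 9 genes and called for 0 of 9 (0.829% of all genes). It was 0.48 for Map1b (standard error 0.259, adjusted p = 0.845), 0.41 for Map2 (standard error 0.222, adjusted p = 0.845), 0.36 for Map1a (standard error 0.214, adjusted p = 0.845) and 0.31 for Gsk3b (standard error 0.174, adjusted p = 0.845). For Mapt it was 0.039 (standard error 0.103, adjusted p = 0.957). A single library weighed on these values: without Tg2576 DHA replicate 1, Map2 was called both for DHA in Tg2576 mice (0.45, adjusted p = 0.559) and for the interaction (0.58, adjusted p = 0.364), the only such call among the 9 genes. With a length trend per library as an offset, described further on, the interactions were smaller, at 0.27 for Map1b, 0.20 for Map2, 0.19 for Map1a and 0.19 for Gsk3b, and with the replicate block as well 0.25, 0.17, 0.15 and 0.17. With the offset those of Mapt (-0.044), Map4 (-0.15) and Map6 (-0.064) were below 0.

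**Figure D3:**
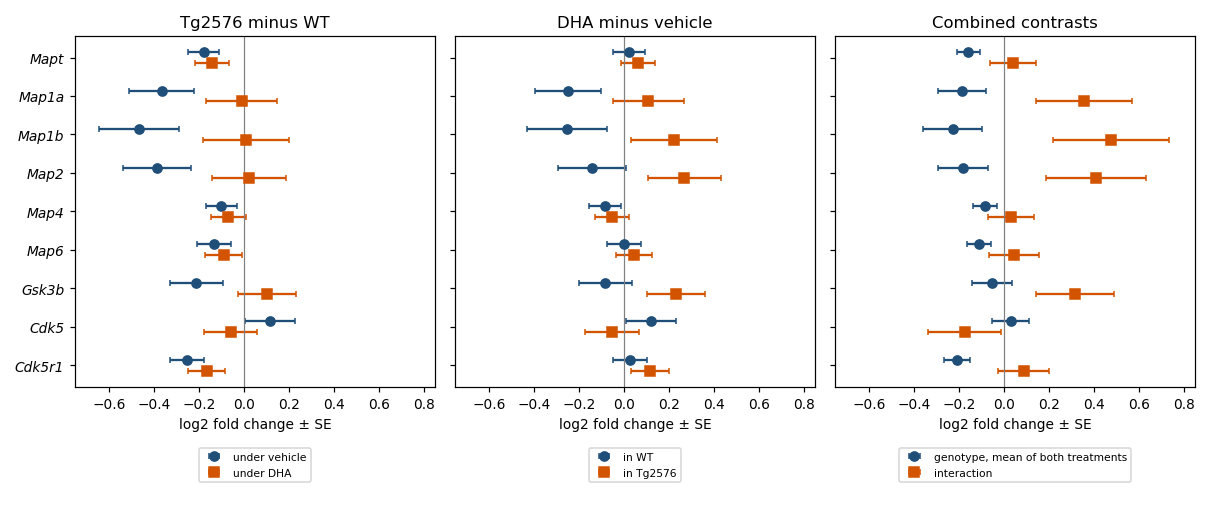
Log2 fold change ± standard error (x axis) of each gene for Tg2576 minus WT, DHA minus vehicle, and the combined contrasts. Mapt and Cdk5r1 lie left of 0 with short bars over both treatments, while the bars of Map1a, Map1b and Map2 are longer and their interactions, from 0.36 to 0.48, lie right of 0.

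Map1a, Map1b, Map2 and Gsk3b followed each other across the 15 mice regardless of group. Pearson's r of log2 CPM was 0.942 for Map1b with Map2 (Spearman's rho 0.943, permutation p = 1e-05 for each, the smallest 100000 permutations can give), 0.911 for Map1a with Map1b, 0.882 for Map1a with Map2, and 0.879, 0.861 and 0.859 for Gsk3b with Map1a, Map1b and Map2. The adjusted permutation p of these 6 values was at most 0.00048 over 36 pairs. With the mean of each group removed, r stayed between 0.834 and 0.943, and without the 2 mice farthest from the median of the first gene it was 0.787 to 0.929. Cdk5 ran opposite to them, with r from -0.759 to -0.812 (adjusted permutation p at most 0.00353). Mapt followed Cdk5r1 (r = 0.724, rho = 0.854, adjusted permutation p = 0.00657 and 0.00072, and r = 0.801 without the 2 farthest mice), but with the group means removed this r was 0.099, so it rested on the difference between the groups.

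Several of these genes are long, and each library differed in how its counts depended on gene length. For each mouse, a slope of the deviations in log2 CPM from the gene means on log2 exon length was fitted over all genes tested. It ranged from -0.091 in Tg2576 DHA replicate 1 and -0.075 in Tg2576 vehicle replicate 4 to 0.076 in Tg2576 DHA replicate 2, with medians of 0.030 in WT vehicle, -0.0020 in WT DHA, -0.0091 in Tg2576 vehicle and 0.021 in Tg2576 DHA mice. The exon length is 16456 bases for Map2, 15846 for Map1b, 15143 for Map4, 12166 for Map1a, 9831 for Gsk3b, 9152 for Map6, 7531 for Mapt, 4162 for Cdk5r1 and 2168 for Cdk5.

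Across the mice the log2 CPM of Map2 (r = 0.887), Map1b (r = 0.877), Gsk3b (r = 0.873) and Map1a (r = 0.859) rose with this slope and that of Cdk5 fell with it (r = -0.886), each with an adjusted permutation p of at most 0.000216. Spearman's rho was 0.900, 0.921, 0.904, 0.800 and -0.825, with adjusted permutation p of at most 0.00113. Without the mice with the lowest slopes (Tg2576 DHA replicate 1 and Tg2576 vehicle replicate 4) r was 0.812, 0.820, 0.862, 0.723 and -0.760. Of all 19536 genes, 1.71% had an r at least as high as Map1a and 0.276% one at least as low as Cdk5. Because the slope was itself fitted on exon length over all genes, a rise of long genes and a fall of short ones is partly built in. The share among genes of like length was not counted. Mapt (r = 0.310, rho = 0.364, permutation p = 0.260 and 0.182) and Map4, which is nearly as long as Map1b (r = 0.419, rho = 0.293, permutation p = 0.120 and 0.287), did not pass. Cdk5r1 lay between (r = 0.569, rho = 0.364, adjusted permutation p = 0.0405 and 0.235), and its r was 0.293 without the mice with the lowest slopes but 0.728 with the group means removed. Its r with Map1b was 0.732 (rho = 0.543, adjusted permutation p = 0.00657 and 0.0973), 0.819 with the group means removed and 0.791 with the length offset described next. With Map1a, Map2 and Gsk3b the r of Cdk5r1 was 0.729, 0.672 and 0.768 with the group means removed. With the offset it was 0.686, 0.672 and 0.578.

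**Figure D4:**
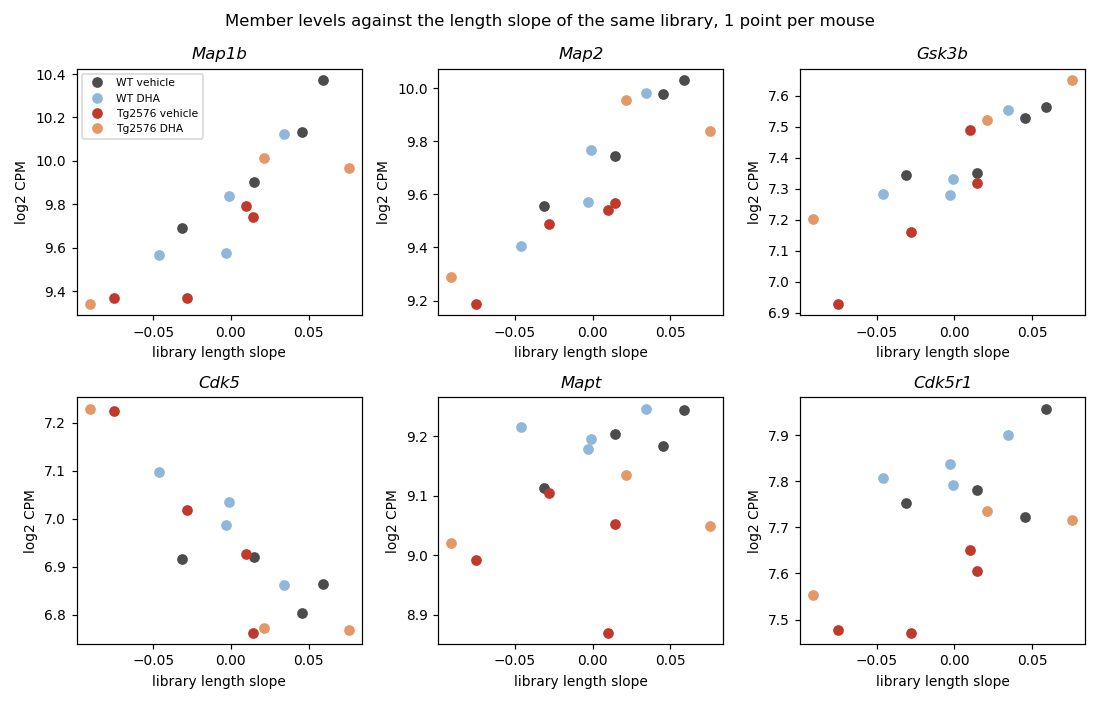
Log2 CPM (y axis) of 6 genes against the length slope of the same library (x axis, change in log2 CPM per unit of log2 exon length), 1 point per mouse, coloured by group. Map1b, Map2 and Gsk3b climb and Cdk5 descends along the slope, whereas for Mapt and Cdk5r1 the red and orange Tg2576 points mostly lie below the WT points of similar slope.

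When a length trend per library was entered in the fit as an offset, the differences under vehicle shrank to -0.29 for Map1b (standard error 0.0998, now called, adjusted p = 0.310), -0.23 for Map1a (standard error 0.0872, adjusted p = 0.362) and -0.20 for Map2 (standard error 0.0827, adjusted p = 0.400). Cdk5r1 stayed at -0.25 (standard error 0.0720, adjusted p = 0.218). Mapt came to -0.10 under vehicle (standard error 0.0717, adjusted p = 0.657) and -0.13 over both treatments (standard error 0.0529, adjusted p = 0.331), so its call was lost. Map4 turned from -0.10 to 0.071 (standard error 0.0936, adjusted p = 0.847). The levels of Mapt and Map4 had not passed for a correlation with the length slope. Under vehicle their standard errors were 0.0699 and 0.0706 without the offset and rose with it. The r of Map4 with Map1a, Map1b, Map2 and Gsk3b was 0.26 to 0.50 without the offset and -0.57 to -0.67 with it. Whether the offset suits Mapt and Map4 was not tested. With the offset the r of the 6 pairs among Map1a, Map1b, Map2 and Gsk3b fell to between 0.541 (Map2 with Gsk3b) and 0.770 (Map1b with Map2), and that of Cdk5 with these 4 genes came to -0.41 to -0.49. RNA integrity was not analysed here, and its part in the length slope was not tested.

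**Figure D5:**
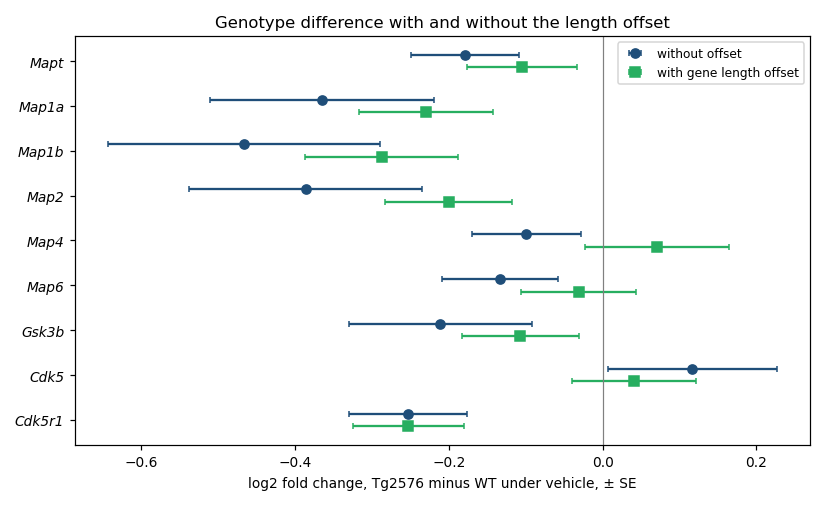
Log2 fold change ± standard error (x axis) of Tg2576 minus WT under vehicle, without (circles) and with (squares) the offset for gene length. Cdk5r1 stays at -0.25, Map1a, Map1b and Map2 move toward 0 with shorter bars, and Map4 crosses 0.

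Among all 10330 other tested genes with a mean of at least 10 CPM, those most like Mapt across the 15 mice were Ccnd2 (r = 0.911, 0.833 with the group means removed), Dnajc14 (r = 0.893 and 0.933), Rnf216 (r = 0.884 and 0.825), Lman2l (r = 0.884 and 0.752) and Pnmal1 (r = 0.880 and 0.758). This ranking is a description of these libraries. Their differences between the genotypes over both treatments ran from -0.12 (Dnajc14) to -0.30 (Ccnd2) on the log2 scale, with adjusted p from 0.146 to 0.496. They were picked by likeness to Mapt over the same mice, and Mapt differed between the genotypes. Their direction, the same as that of Mapt, was thus largely set by the choice and adds no evidence.

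The surroundings of these genes were read in 6 lists of 128 other genes, all tested. Under vehicle 0 were higher and 2 lower (1.56%), under DHA 0 higher and 1 lower (0.781%), and over both treatments 0 higher and 4 lower (3.12%), shares below those of all genes. Of 30 structural MAPs and tubulin regulators, only Tppp was called, in both the vehicle and the pooled comparison. Tppp, a tubulin polymerization-promoting protein of oligodendrocytes, had 624 ± 48.5 CPM in WT vehicle and 472 ± 44.2 CPM in Tg2576 vehicle mice (SD, n = 4 each), and fell by 0.40 (standard error 0.0850, adjusted p = 0.142) under vehicle and by 0.29 (standard error 0.0627, adjusted p = 0.0739) over both treatments. The 8 oligodendrocyte markers summed to 7496 to 8092 CPM in WT vehicle and 5848 to 8476 CPM in Tg2576 vehicle mice, 5 of the 8 were lower with a median log2 difference of -0.16, and 0 were called. Over both treatments 7 of the 8 were lower and 0 were called, with a median of -0.080. Their part in the Tppp result was not tested.

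Of 16 genes that sever microtubules or modify tubulin, Vash1, a tubulin detyrosinase, fell under vehicle from 33.2 ± 5.44 to 21.1 ± 4.42 CPM (SD, n = 4 each), by 0.65 on the log2 scale (standard error 0.173, adjusted p = 0.198). Over both treatments it fell by 0.44 (standard error 0.128, adjusted p = 0.172). Agbl4, a tubulin deglutamylase, rose with DHA in WT mice from 9.96 ± 1.27 to 13.5 ± 0.408 CPM (SD, n = 4 each), by 0.44 (standard error 0.122, adjusted p = 0.540).

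Of 30 other tau kinases, Camk2a, the abundant calmodulin-dependent kinase of excitatory neurons, fell over both treatments by 0.24 (standard error 0.0765, adjusted p = 0.212). Its level was 4586 ± 475 and 4448 ± 489 CPM in the 4 WT mice each of vehicle and DHA, against 3917 ± 321 CPM in 4 Tg2576 mice on vehicle and 3715 ± 437 CPM in 3 on DHA (± SD). Mapk3, which encodes ERK1, rose with DHA in WT mice by 0.45 (standard error 0.141, adjusted p = 0.637), and Camk2d rose with DHA over both genotypes by 0.39 (standard error 0.130, adjusted p = 0.9998). Of 21 tau phosphatase subunits and partners, Ppp2r2c, a regulatory subunit of the main tau phosphatase PP2A, fell over both treatments by 0.18 (standard error 0.0529, adjusted p = 0.178). Bin1, an Alzheimer's risk gene whose product binds tau, was lower in Tg2576 than in WT mice under DHA by 0.29 (standard error 0.0999, adjusted p = 0.565), with 312 ± 36.0 CPM in 3 mice against 383 ± 17.99 CPM in 4 (± SD).

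Of 17 kinesin and dynein motor genes, 16 were lower in value under vehicle, with a median of -0.16, and 0 were called. The lowest p belonged to Kif5b (-0.29, standard error 0.106, adjusted p = 0.345), a heavy chain of conventional kinesin. With the length offset the median of the motors was -0.082. Of 14 tubulin genes, 0 were called between the genotypes, with a median of -0.083 under vehicle and 8 of 14 below 0. Tuba1c had the lowest adjusted p of these under vehicle (log2 difference 3.08, standard error 1.04, adjusted p = 0.339). Tubb2b differed by -0.33 (standard error 0.128, adjusted p = 0.370) under vehicle. With the length offset the tubulin median under vehicle was -0.16, with 9 of 14 below 0 and 1 called lower. With DHA in WT mice 3 of the 128 genes were called and higher (2.34%, beside 1.38% of all genes), namely Agbl4, Mapk3 and Tuba1c, and with DHA in Tg2576 mice 0 were called, as for the interaction. Tuba1c stood at 2 separate levels within the WT DHA group, as described further on. For DHA over both genotypes 2 were called and higher (1.56%, beside 0.870% of all genes), namely Camk2d and Agbl4. Counts this small do not show an excess over all genes.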

How the data were processed

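Hippocampal RNA sequencing of 15 mice was read from raw counts. The authors made the deposited counts of 55401 genes with featureCounts 1.6.0 on GENCODE M25 (GRCm38) after alignment with STAR 2.6.1c, per the submitters' processing notes. The labels name a SMARTER library kit and the paper a TruSeq Stranded one. Counting was by default options, without strand and without reads shared between genes. Map1a shares 272 exonic bases (2.24%) with Ppip5k1, and Map2 shares 124 (0.754%) with Gm10558, each on the opposite strand. Reads from these shared bases could not be assigned. The file headers carry 1 run tag shared by all 15 libraries, and no batch was compared.

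Counts were processed in R 4.3.3 with edgeR 4.0.16. The filterByExpr function (minimum count 10) kept 19536 genes, library sizes were scaled by TMM, and 1 coefficient per group was fitted over all mice (robust quasi-likelihood F test, two-sided, biological coefficient of variation 20.1%). Genes were called at an unadjusted p of 0.01, the study's threshold, and Benjamini-Hochberg adjusted p over all genes tested stand beside. Permutation tests used log2 CPM (prior count 2). With 4 mice against 3 or 4 the exact test cannot give a p below 0.0286. Symbols came from GENCODE M21. The workflow was tested on simulated data. Alternatives were DESeq2 1.42.0, limma-voom (limma 3.58.1), no TMM, no filter, only the groups compared, the replicate number as a block, a length offset (lowess span 0.3), both together, and each mouse left out.

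The 9 genes, the other lists and the alternatives were chosen with earlier results of these data known. Named genes were the 9 members, of each other list those called in any comparison or among the 3 with the lowest p between the genotypes or for the interaction, and the 5 genes most like Mapt.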

Additional observations from a re-analysis of the deposited data

How the results depend on the processing

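Counts of the 9 genes called moved in these settings. Under vehicle (1 gene) the count was 2 with DESeq2, 2 with the length offset, 4 with the replicate block (Map1a, Map1b, Map2 and Cdk5r1) and 2 with the block and the length offset. With only the 2 groups fitted it stayed at 1, but the gene called there was not Cdk5r1. Over both treatments (2 genes) it was 1 without TMM factors, without a filter, with the block, with the length offset and with both. Leaving out 1 mouse gave 0 to 3 under vehicle, 1 to 2 over both treatments, and 0 to 1 for DHA in Tg2576 mice and for the interaction. The 0 under vehicle came without WT vehicle replicate 2, Tg2576 vehicle replicate 3 or Tg2576 vehicle replicate 4, the 2 without Tg2576 vehicle replicate 1, and the 3 without WT vehicle replicate 3 or Tg2576 DHA replicate 1. The cause was not tested.

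Mice with the same replicate number share only a number. Over 21 pairs the correlation of their deviations from the group means ran from -0.24 to 0.21, 4 pairs were over 0.1, and 5 correlated best with their own number.

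Counts over all genes moved as follows. For DHA in Tg2576 mice, 126 genes were called with DESeq2, 126 without a filter, 29 with only the 2 groups and 105 with the length offset (69 as reported). For DHA in WT mice 431 were called with only the 2 groups (270 as reported). The interaction gave 247 with DESeq2 and 289 without a filter (162), and DHA over both genotypes 263 without a filter (170). Leaving out 1 mouse gave 312 to 965 genes for genotype under vehicle, 190 to 460 under DHA, 156 to 331 for DHA in WT mice, 53 to 312 for DHA in Tg2576 mice and 87 to 527 for the interaction. The highest counts under DHA, for DHA in either genotype and for the interaction came without Tg2576 DHA replicate 1.

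Small values changed sign. For Tg2576 minus WT under DHA, Map1b was -0.029 with the replicate block, -0.019 with the length offset, -0.031 with both and -0.0044 with limma-voom. Map2 was -0.035, -0.0041 and -0.031 with the block, the offset and both, and Map1a was 0.026 without TMM factors. Map4 was 0.071 under vehicle with the offset and 0.070 with the block as well, 0.037 and 0.033 for DHA in WT mice, and -0.15 and -0.11 for the interaction. With the offset, and with the block as well, the interaction was -0.044 and -0.021 for Mapt and -0.064 and -0.062 for Map6. The genotype difference of Cdk5 over both treatments was -0.012 and -0.0032. With both, Map4 was 0.017 over both treatments, and for DHA in Tg2576 mice Map1a was -0.0018 and Cdk5 0.0019. With the offset, Map1b was 0.0022 for DHA over both genotypes, and the log2 ratio of Map1a to Map1b was -0.019 for DHA in WT mice. Map6 was -0.0034 without TMM factors and -0.0026 without a filter for DHA in WT mice.

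With 1 mouse left out, the values under DHA ran from -0.10 to 0.16 (Map1a), -0.11 to 0.20 (Map1b), -0.11 to 0.20 (Map2) and -0.22 to 0.022 (Cdk5). For DHA they ran from -0.00089 to 0.040 (Mapt) and -0.042 to 0.045 (Map6) in WT mice, from -0.22 to 0.030 (Cdk5) in Tg2576 mice, and over both genotypes from -0.12 to 0.021 (Map1a), -0.079 to 0.086 (Map1b), -0.0030 to 0.16 (Map2) and -0.042 to 0.081 (Cdk5). The interaction ran from -0.0036 to 0.073 (Mapt) and -0.00037 to 0.087 (Map6), and the genotype difference over both treatments from -0.10 to 0.013 (Gsk3b) and -0.050 to 0.073 (Cdk5). The log2 ratios ran for DHA in WT mice from -0.051 to 0.083 (Map1a to Map1b) and -0.033 to 0.19 (Map4 to Map2), and under DHA from -0.084 to 0.029 (Map1a to Map1b), -0.20 to 0.12 (Cdk5r1 to Cdk5) and -0.25 to 0.027 (Map4 to Map2).

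Of the other values of single genes and ratios, 438 kept their direction and side of the threshold under the alternative settings and 884 with 1 mouse left out. With 3 or 4 mice a group, differences of the 9 genes near their standard errors, 0.0699 to 0.190 on the log2 scale between pairs of groups, could not be resolved.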

Other observations

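Tuba1c, an alpha-tubulin gene with near-identical paralogs whose shared reads are uncertain, stood at 2 separate levels. It had 3.98, 0.774, 4.32 and 1.29 CPM in the WT vehicle mice and 0.968, 34.4, 32.6 and 35.4 CPM in the WT DHA mice. In the Tg2576 vehicle mice it had 28.7, 3.55, 29.9 and 29.0 CPM, and in the Tg2576 DHA mice 5.47, 34.6 and 39.3 CPM. Of the 15 mice, no value lay between 5.47 and 28.7 CPM, and both levels occurred in 3 of the 4 groups. It was called for DHA in WT mice (log2 difference 3.27, standard error 1.04, adjusted p = 0.700 by edgeR). Its neighbours in sequence did not split in this way, with 217 to 553 CPM for Tuba1a and 103 to 247 CPM for Tuba1b.

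Tubg2, a gamma-tubulin gene, had an interaction of -0.46 on the log2 scale (standard error 0.172, adjusted p = 0.845), opposite in sign to those of the large MAP genes.

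Of 6 microglial markers, 4 were called between the genotypes over both treatments and 4 under DHA, with a median log2 difference of 0.31 over both treatments. Under vehicle 0 of 6 were called by edgeR (median 0.16), and their summed levels overlapped, with 317 to 450 CPM in Tg2576 and 314 to 371 CPM in WT mice. Under DHA their summed level was 344 to 489 CPM in Tg2576 DHA and 268 to 334 CPM in WT DHA mice. Of 5 markers of the dentate gyrus, 4 were lower over both treatments and 2 were called, with a median of -0.27, and their summed level was 220 to 232 CPM in Tg2576 DHA and 211 to 331 CPM in WT DHA mice. Under vehicle 4 of the 5 were lower and 1 was called, with a median of -0.17. Of 7 interneuron markers, 5 were lower under vehicle and 2 were called, with a median of -0.28, and they summed to 733 to 818 CPM in Tg2576 vehicle and 811 to 1099 CPM in WT vehicle mice. Over both treatments 5 of the 7 were lower and 0 were called, with a median of -0.18. All 4 markers of CA3 were lower under vehicle and 1 was called, with a median of -0.21. Over both treatments all 4 were lower and 0 were called, with a median of -0.16. Of 4 markers of CA1, 2 were lower under vehicle and 0 were called (median -0.016). Over both treatments 3 of these CA1 markers were lower and 1 was called (median -0.052). Among all genes tested, 3.09% were called under vehicle and 3.85% over both treatments. The part of these markers in the Mapt and Cdk5r1 results was not tested.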
